A study of Mus musculus with 12 samples.

Results

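The genes described here make, carry, sense and remove retinoic acid. They were the 9 genes Rdh10, Aldh1a2, Dhrs3, Cyp26a1, Crabp1, Crabp2, Rara, Rarb and Rarg, taken as the entries of the count table whose transcript maps to one of these symbols in the GENCODE annotation of GRCm38. The table holds 22467 transcripts, all 9 genes were found in it, and each was represented by 1 transcript. Wild-type (Rpl10a +/+) and Rpl10a LOF/LOF mouse embryos at E8.5 were compared, 3 of each genotype. Each whole embryo gave 1 ribosome profiling library, which samples the ribosome-protected fragments of mRNA (RPF), and 1 RNA-seq library (RNA). In the study's account the LOF allele is a deletion within the first intron of Rpl10a, which encodes a protein of the large ribosomal subunit, so that the protein carries extra residues behind its first methionine. Both genotypes were on a C57BL/6 background, no embryos were pooled, and the allele was present in every cell of the embryo.

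Retinoic acid is a small signaling molecule made from vitamin A in 2 oxidation steps, retinol to retinaldehyde and retinaldehyde to retinoic acid. In the embryo around E8.5 it is made in the trunk mesoderm and removed in the head and at the posterior end, and the resulting differences in level help to pattern the hindbrain, the somites and the heart. Inside cells it is carried by small binding proteins and acts through nuclear receptors, which pair with retinoid X receptors on DNA elements made of 2 direct repeats of a short hexamer.

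RPF libraries held 7041357 to 10863499 counts and RNA libraries 9132521 to 26561843. Values are given as CPM, counts per 1000000 of the TMM-scaled library total, with RPF and RNA libraries scaled separately. Where 3 values stand in a row, they belong to replicates 1, 2 and 3 of the genotype in this order, and the same number in both genotypes does not pair embryos. The quasi-likelihood test of edgeR compared the genotypes over the 12576 transcripts that exceeded 0.75 CPM in 3 or more RPF libraries. FDR is the Benjamini-Hochberg adjusted p of that test over all of these transcripts, and a gene is called changed at an FDR under 0.1. Rpl10a itself had 1562 to 1679 CPM of RPF in wild-type and 940 to 1125 CPM in Rpl10a LOF/LOF embryos, and 789 to 870 and 695 to 753 CPM of RNA, without overlap in either (edgeR FDR = 0.00689 and 0.0678). The genotypes also differed in reads from 4 Y-linked genes, which summed to at least 163 CPM of RPF in the 3 wild-type embryos and to 9.33, 153 and 0.380 CPM in the Rpl10a LOF/LOF embryos. All 14 markers listed for presomitic mesoderm and somites and all 6 for heart passed the filter, as did all 6 for maternal decidua, which shows that these tissues' transcripts were detected and does not check the stage. The study states that embryos came from several litters but not which embryo came from which, and p-values measure the spread among these 6 embryos.

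The 2 cellular retinoic acid binding proteins, Crabp1 and Crabp2, were the members called lower in RNA in Rpl10a LOF/LOF embryos. The RNA log2 fold change was below 0 for 6 of the 8 members tested. Crabp1 RNA fell by 15.7% (log2 fold change -0.25, standard error 0.05, edgeR FDR = 0.0292). Crabp2 RNA fell by 19.1% (log2 fold change -0.31, standard error 0.07, edgeR FDR = 0.0486). No member was called higher in RNA, no member was called in RPF, and no member was called in translation efficiency, the change of RPF beyond that of RNA. Over all transcripts tested, 5.02% were called in RNA (3.25% lower and 1.77% higher), 2.19% in RPF and 0% in translation efficiency. At an unadjusted p under 0.05 in edgeR's test, Crabp2 and Cyp26a1 were lower in RPF, beside 6.61% of all transcripts. In RNA, Crabp1, Crabp2 and Cyp26a1 were lower and Rarg was higher at that unadjusted p, beside 9.60% lower and 7.44% higher of all transcripts. In translation efficiency 0 members reached it, beside 4.44%. DESeq2 and limma-voom also called 0 members in RPF and in translation efficiency, while limma-voom with surrogate variables from sva called 3 in RPF, as given below with each gene, among 1306 of all 12576 transcripts. Because these are whole embryos, fewer cells expressing a gene and less RNA per cell cannot be told apart.

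**Figure D1:**
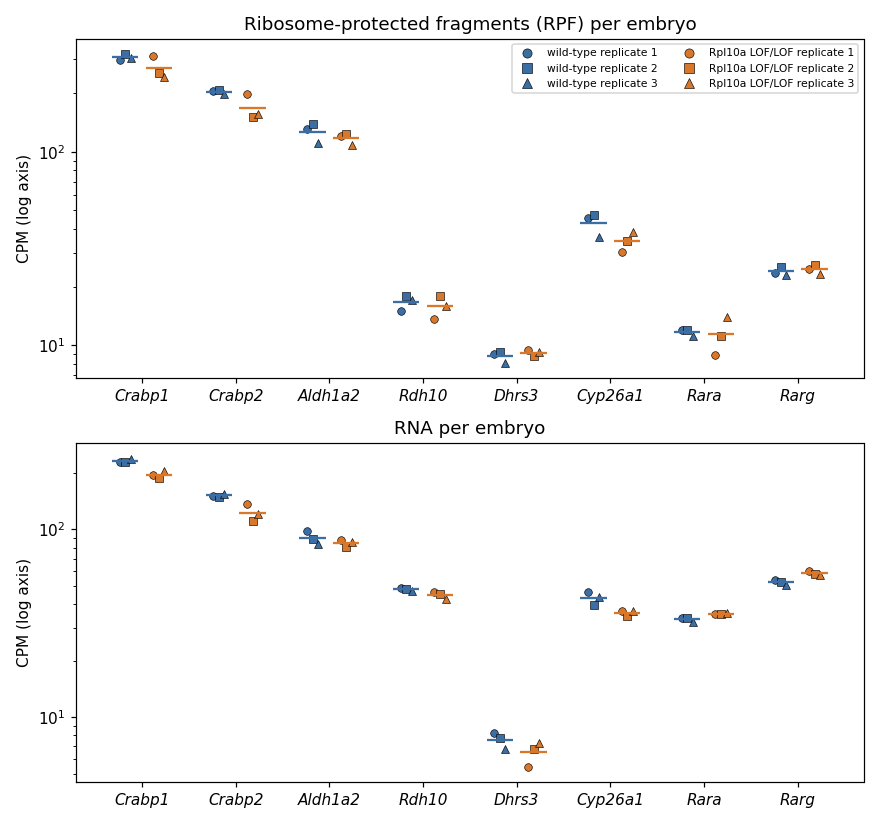
CPM (log axis) of the 8 members that passed the filter in the 3 wild-type embryos (blue) and the 3 Rpl10a LOF/LOF embryos (orange), with RPF above and RNA below. Each symbol is 1 embryo and each line the mean of 3. Crabp1, Crabp2, Cyp26a1 and Rdh10 RNA lay lower in every Rpl10a LOF/LOF embryo than in every wild-type embryo, and Rara and Rarg RNA lay higher, while in RPF the genotypes overlapped for all 8 genes.

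Per kilobase of counted coding sequence, wild-type RPF was highest for Crabp1 at 867 ± 29.3 CPM per kb (SD, n = 3), followed by Crabp2 at 572 ± 15.4 and Aldh1a2 at 84.8 ± 9.26. Cyp26a1 followed at 30.0 ± 4.02 CPM per kb of RPF. Rarg at 18.3 ± 0.88 and Rdh10 at 17.3 ± 1.51 CPM per kb overlapped between embryos, so their order is not resolved. Dhrs3 at 10.4 ± 0.70 and Rara at 8.85 ± 0.39 CPM per kb came last among the genes tested, and these 2 did not overlap with each other. The other neighbors in this order were separate in all 3 wild-type embryos.

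Per kilobase of whole transcript, wild-type RNA followed nearly the same order. Crabp1 had 289 ± 7.18 CPM per kb (SD, n = 3), Crabp2 163 ± 2.97, Aldh1a2 39.8 ± 3.36, Cyp26a1 24.2 ± 1.81 and Rarg 17.7 ± 0.52. Rara at 13.98 ± 0.41 and Rdh10 at 13.4 ± 0.21 CPM per kb of RNA overlapped, and Dhrs3 had 3.26 ± 0.32. In Rpl10a LOF/LOF embryos the order of the means was the same, but Cyp26a1 at 20.2 ± 0.65 and Rarg at 19.8 ± 0.50 CPM per kb of RNA now overlapped. In RPF, Rara (6.69 to 10.6 CPM per kb) and Dhrs3 (10.4 to 11.2) now overlapped as well. Crabp1 and Crabp2 together made up 56.8% to 59.9% of the summed RNA CPM of the 9 members in wild-type and 53.4% to 55.0% in Rpl10a LOF/LOF embryos. Their share of the summed RPF CPM was 67.8% to 70.8% in wild-type and 64.8% to 71.0% in Rpl10a LOF/LOF embryos, which overlap.

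Among the synthesis enzymes, Rdh10 encodes the dehydrogenase that oxidizes retinol to retinaldehyde in the embryo. Its counted transcript lies at chr1:16105774-16133734 on the plus strand. Rdh10 RNA was 48.6, 48.5 and 47.3 CPM in the wild-type and 46.5, 45.4 and 42.8 CPM in the Rpl10a LOF/LOF embryos. Every Rpl10a LOF/LOF embryo was thus below every wild-type embryo, by little, and the difference did not pass the test (log2 fold change -0.10, standard error 0.06, edgeR FDR = 0.474). Rdh10 RPF overlapped between the genotypes, with 15.1 to 17.9 CPM in wild-type and 13.7 to 18.0 CPM in Rpl10a LOF/LOF embryos (log2 fold change -0.06, standard error 0.13, edgeR FDR = 0.895).

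Aldh1a2 encodes the dehydrogenase that turns retinaldehyde into retinoic acid and supplies most of the retinoic acid of the trunk mesoderm at this stage. It lies at chr9:71215789-71296243 on the plus strand. Aldh1a2 RPF was 131, 138 and 112 CPM in the wild-type and 121, 123 and 109 CPM in the Rpl10a LOF/LOF embryos. Replicate 3 was the lowest of each genotype and the groups overlapped (log2 fold change -0.11, standard error 0.09, edgeR FDR = 0.631). Aldh1a2 RNA also overlapped, at 83.3 to 98.3 CPM in wild-type and 80.9 to 88.1 CPM in Rpl10a LOF/LOF embryos (log2 fold change -0.08, standard error 0.07, edgeR FDR = 0.594). With 1 embryo left out these values ranged from -0.20 to -0.05 in RPF and from -0.14 to -0.02 in RNA.

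Dhrs3 encodes a reductase that turns retinaldehyde back into retinol and so limits how much retinoic acid is made. It lies at chr4:144893077-144928209 on the plus strand and was the member with the fewest RNA counts among those tested, 68 to 203 per library. Dhrs3 RNA was 8.24, 7.79 and 6.79 CPM in the wild-type and 5.44, 6.80 and 7.29 CPM in the Rpl10a LOF/LOF embryos. Rpl10a LOF/LOF replicate 1 was the lowest of the 6 embryos and the other 2 lay within the wild-type range. The log2 fold change in RNA was -0.23 (standard error 0.14, edgeR FDR = 0.459), and it was -0.11 without Rpl10a LOF/LOF replicate 1. In RPF the values were 8.13 to 9.25 CPM in wild-type and 8.84 to 9.47 CPM in Rpl10a LOF/LOF embryos (log2 fold change 0.06, standard error 0.14, edgeR FDR = 0.902).

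Cyp26a1, the enzyme of breakdown among the members, is a cytochrome P450 that oxidizes retinoic acid to inactive products and is itself induced by retinoic acid. It lies at chr19:37697798-37701536 on the plus strand. Cyp26a1 RNA was 46.3, 39.9 and 43.8 CPM in the wild-type and 36.7, 34.8 and 36.9 CPM in the Rpl10a LOF/LOF embryos. All 3 Rpl10a LOF/LOF embryos were below all 3 wild-type embryos, but the difference missed the threshold (log2 fold change -0.26, standard error 0.08, edgeR FDR = 0.113). Cyp26a1 RPF was 45.5, 47.1 and 36.4 CPM in the wild-type and 30.5, 34.4 and 38.7 CPM in the Rpl10a LOF/LOF embryos. Here wild-type replicate 3 lay below Rpl10a LOF/LOF replicate 3, so the groups overlapped, and the log2 fold change was -0.31 (standard error 0.12, edgeR FDR = 0.288). With surrogate variables in limma-voom its RPF came to just under the threshold, at a log2 fold change of -0.31 and an FDR of 0.0999668.

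The Cyp26a1 promoter held a direct repeat of the hexamer that retinoic acid receptors bind, with 5 bases between the hexamers, known as DR5, and so did the promoter of Rarb. These elements are shown because 2 of the 7 members searched held one. Both strands of the RefSeq promoter windows of GRCm38.p6, 250 bases before to 50 bases after each start, were searched for 2 hexamers in the same orientation, each of which read AGGTCA or else AGTTCA or else GGGTCA or else GGTTCA, with 1 (DR1), 2 (DR2) or 5 (DR5) bases between them. A DR5 was found in 2 of the 13 windows of the 7 members in the table and in 32 of all 32851 windows (0.0974%). DR1 and DR2 were found in 0 member windows, against 0.222% and 0.268% of all windows. The table had no window for Crabp2 and Rdh10. With AGGTCA and AGTTCA as the only hexamers, the Cyp26a1 element was kept and the Rarb element was not. On the strand of each gene, with the whole element in capitals and the stretch ending before the start of transcription (for Cyp26a1 that of the counted transcript, which lies upstream of the RefSeq start), the sequences were as follows.
Cyp26a1: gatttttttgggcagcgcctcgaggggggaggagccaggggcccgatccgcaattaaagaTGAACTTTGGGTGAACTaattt
Rarb: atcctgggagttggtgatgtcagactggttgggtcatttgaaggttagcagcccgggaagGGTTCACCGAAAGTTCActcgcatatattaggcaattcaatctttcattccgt
The Cyp26a1 stretch is chr19:37697716-37697797 on the plus strand, and its element, chr19:37697776-37697792, holds AGTTCA in both places on the opposite strand and lies 32 to 16 bases before the RefSeq start. The Rarb stretch is chr14:16575477-16575589 on the minus strand, and its element, chr14:16575513-16575529, holds GGTTCA and then AGTTCA on the strand of the gene, 53 to 37 bases before the start. A match is a description of the letters and not a measured binding site. Of these 2 genes, Cyp26a1 was not called in RNA (edgeR FDR = 0.113), and Rarb could not be tested. Cyp26a1 RNA was lower in all 3 Rpl10a LOF/LOF embryos, as were 12.6% of all transcripts. A link between the elements and RNA levels was not tested.

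The binding proteins carry retinoic acid in the cytoplasm, and CRABP2 in addition delivers it to the receptors in the nucleus. Crabp1 lies at chr9:54764748-54773110 and Crabp2 at chr3:87948666-87953376, both on the plus strand. Crabp1 RNA was 229, 228 and 239 CPM in the wild-type and 195, 189 and 204 CPM in the Rpl10a LOF/LOF embryos. Crabp2 RNA was 151, 149.8 and 155 CPM in the wild-type and 136, 111 and 122 CPM in the Rpl10a LOF/LOF embryos. For both genes all 3 Rpl10a LOF/LOF embryos lay below all 3 wild-type embryos. Rpl10a LOF/LOF replicate 2 was the lowest of the 6 embryos for both.

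In RPF, both binding proteins overlapped between the genotypes. Crabp1 RPF was 298, 318 and 304 CPM in the wild-type and 311, 256 and 242 CPM in the Rpl10a LOF/LOF embryos. Crabp2 RPF was 205, 209 and 198 CPM in the wild-type and 199, 152 and 156 CPM in the Rpl10a LOF/LOF embryos. In both genes Rpl10a LOF/LOF replicate 1 was within the wild-type range while replicates 2 and 3 were below it. The log2 fold change in RPF was -0.19 for Crabp1 (standard error 0.09, edgeR FDR = 0.394) and -0.28 for Crabp2 (standard error 0.10, edgeR FDR = 0.229), close to those in RNA. Without Rpl10a LOF/LOF replicate 1 the RPF changes were -0.30 and -0.41 and both passed the test (edgeR FDR = 0.0710 and 0.0325), among 190 of 12471 transcripts called in that fit. With surrogate variables in limma-voom they were -0.21 and -0.32 and also passed (FDR = 0.0103 and 0.0010).

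With 1 embryo left out, the RNA log2 fold change of Crabp1 ranged from -0.28 to -0.22 and that of Crabp2 from -0.40 to -0.23. The RNA calls of these binding proteins depended on the embryos used, for Crabp2 more than for Crabp1. Without wild-type replicate 1 both were lost, at a log2 fold change of -0.25 for Crabp1 and -0.31 for Crabp2 (edgeR FDR = 0.130 and 0.179), and 98 transcripts in all were then called in place of 631. The Crabp2 call was also lost without wild-type replicate 2, wild-type replicate 3 or Rpl10a LOF/LOF replicate 3, at -0.31, -0.29 and -0.30 (edgeR FDR = 0.105, 0.115 and 0.121). With a covariate from the Y-linked genes the log2 fold changes were larger, -0.30 and -0.43, but neither passed (edgeR FDR = 0.154 and 0.110), and 37 transcripts in all did. Of the Rpl10a LOF/LOF embryos, replicate 2 alone had Y-linked reads near the wild-type level, so that these reads and the genotype were partly confounded.

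Among the receptors, Rara and Rarg encode the retinoic acid receptors alpha and gamma, ligand-activated transcription factors. Rarg lies at chr15:102234938-102257517 on the minus strand. Rarg RNA was 53.8, 52.3 and 50.7 CPM in the wild-type and 60.1, 58.1 and 57.2 CPM in the Rpl10a LOF/LOF embryos. All 3 Rpl10a LOF/LOF embryos were above all 3 wild-type embryos, but the difference did not pass the test (log2 fold change 0.17, standard error 0.05, edgeR FDR = 0.155). Rarg RPF overlapped between the genotypes, at 23.1 to 25.4 CPM in wild-type and 23.4 to 26.1 CPM in Rpl10a LOF/LOF embryos (log2 fold change 0.04, standard error 0.10, edgeR FDR = 0.909).

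Rara, at chr11:98927818-98974162 on the plus strand, gave RNA of 33.9, 33.8 and 32.1 CPM in the wild-type and 35.6, 35.4 and 36.0 CPM in the Rpl10a LOF/LOF embryos. The groups did not overlap, and the log2 fold change was 0.10 (standard error 0.07, edgeR FDR = 0.502). Rara RPF was 12.1, 12.1 and 11.2 CPM in the wild-type and 8.89, 11.2 and 14.1 CPM in the Rpl10a LOF/LOF embryos. The spread was thus wider among the Rpl10a LOF/LOF embryos, with replicate 1 the lowest and replicate 3 the highest of the 6. The log2 fold change in RPF was -0.03 (standard error 0.16, edgeR FDR = 0.966), and it was 0.11 without Rpl10a LOF/LOF replicate 1 and 0.0039 without replicate 2.

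Rarb, the receptor beta and a gene that retinoic acid is known to induce, did not pass the filter. It had 0 to 2 RPF counts and 1 to 4 RNA counts per library. In the libraries without an RPF count, wild-type replicate 1 and Rpl10a LOF/LOF replicate 1, a count of 0 allows up to 0.276 and 0.426 CPM, taking 3 counts as the limit and covering counting error only. The counted Rarb transcript has 360 bases in 2 exons and a coding sequence of 222 bases, 16.5% of the longest one annotated for the gene (1347 bases). It starts 243529 bases upstream of the RefSeq start whose promoter is printed above. The low counts therefore refer to this short transcript, and the other 3 coding transcripts of Rarb were not analysed here. For each of the other 8 members the counted transcript held the longest annotated coding sequence.

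The members without overlap between the genotypes were counted for each kind of library. In RNA, 4 of the 8 members tested (Crabp1, Crabp2, Cyp26a1 and Rdh10) were lower in every Rpl10a LOF/LOF embryo, and over all transcripts this share was 12.6%. Rara and Rarg were higher in every Rpl10a LOF/LOF embryo, beside 10.2% of all transcripts. In RPF no member was without overlap, beside 19.4% of all transcripts in either direction. The difference between RPF and RNA is tested by translation efficiency, in which no member and 0% of all transcripts were called. That test therefore does not set the members apart from other transcripts.

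**Figure D2:**
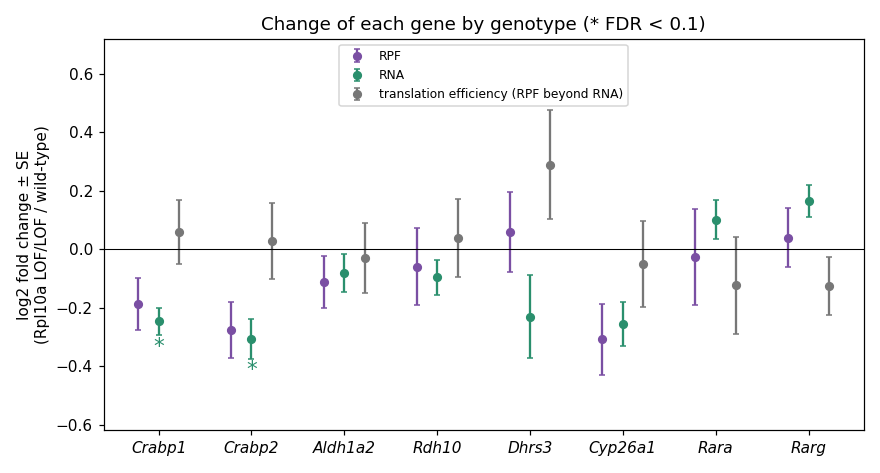
Log2 fold change (Rpl10a LOF/LOF over wild-type, n = 3 each) of the 8 members in RPF, RNA and translation efficiency, with bars of 1 standard error from edgeR's fits. Asterisks mark an FDR under 0.1, which Crabp1 and Crabp2 reached in RNA, while the change in translation efficiency lay within 0.13 of 0 for every gene except Dhrs3 at 0.29.

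The ratio of RPF to RNA within each embryo uses the embryo's own pair of libraries. The members differed in this ratio more than the genotypes did. In wild-type embryos the mean log2 of RPF CPM over RNA CPM was -1.53 ± 0.14 (SD, n = 3) for Rdh10, -1.50 ± 0.02 for Rara and -1.12 ± 0.07 for Rarg. It was -0.02 ± 0.25 for Cyp26a1, 0.21 ± 0.07 for Dhrs3, 0.40 ± 0.07 for Crabp1, 0.42 ± 0.07 for Crabp2 and 0.49 ± 0.13 for Aldh1a2. This ratio depends on how much of each transcript is coding, since RPF are counted on the coding sequence and RNA on the whole transcript. Per counted length, Crabp2, Dhrs3 and Crabp1 stood at percentiles 87.9, 84.6 and 82.0 of 12560 transcripts. Aldh1a2 stood at percentile 63.5, Rdh10 at 36.3, Cyp26a1 at 34.4, Rarg at 26.9 and Rara at 12.1, so both receptors were in the lower part of the range.

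Dhrs3 was the member whose ratio did not overlap between the genotypes. Its log2 ratio was 0.14, 0.25 and 0.26 in the wild-type and 0.80, 0.38 and 0.34 in the Rpl10a LOF/LOF embryos. The mean difference of 0.29 came with p = 0.1 in a two-sided exact permutation test, the smallest p that 3 embryos against 3 allow, and 6.83% of all transcripts were higher in this way. In edgeR's interaction test over the 12 libraries its translation efficiency differed by 0.29 with a standard error of 0.19 (unadjusted p = 0.141), and by 0.15 without Rpl10a LOF/LOF replicate 1. Rpl10a LOF/LOF replicate 1 was far above the other embryos, and its ratio rested on 65 RPF counts and 106 RNA counts.

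For Rarg the log2 ratio was -1.18, -1.04 and -1.13 in the wild-type and -1.27, -1.16 and -1.29 in the Rpl10a LOF/LOF embryos, with overlap of 1 embryo (exact permutation p = 0.2). For the other 6 members the exact permutation p was 0.4 or more. The Rara ratio was -1.49, -1.49 and -1.53 in the wild-type and -2.001, -1.67 and -1.36 in the Rpl10a LOF/LOF embryos, so that its spread, like that of its RPF, was wider in the mutant group. The ratios of Crabp1 were 0.38, 0.48 and 0.35 in the wild-type and 0.68, 0.44 and 0.25 in the Rpl10a LOF/LOF embryos, on both sides of the wild-type range.

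Rpl10a LOF/LOF replicate 1 had the highest ratio of the 6 embryos for 3 of the 8 members (Crabp1, Crabp2 and Dhrs3) and the lowest for 3 others (Cyp26a1, Rara and Rdh10). Wild-type replicate 2 also had the highest ratio for 3 members, and Rpl10a LOF/LOF replicate 3 the lowest for 3. Over 12554 transcripts, the log2 ratio of each embryo was taken as its deviation from the mean of all 6 embryos of both genotypes. For Rpl10a LOF/LOF replicate 1 this deviation had Spearman correlations of -0.18 with coding sequence length and -0.32 with 5′UTR GC content. In the other 5 embryos these correlations ran from -0.07 to 0.18 and from -0.18 to 0.25. The correlations are across transcripts, which are not replicates. Their part in the values of the members was not tested.

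**Figure D3:**
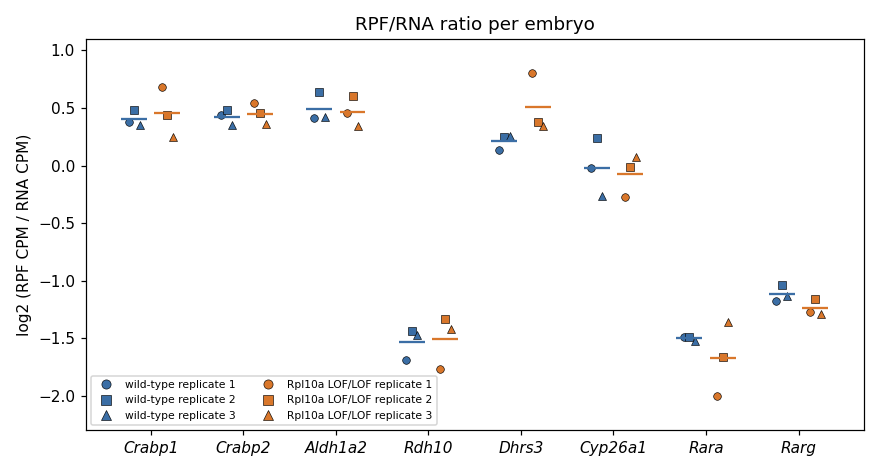
Log2 of RPF CPM over RNA CPM in each embryo for the 8 members, wild-type in blue and Rpl10a LOF/LOF in orange, with lines at the mean of 3 embryos. Rdh10, Rara and Rarg lie below -1 in every embryo, and Dhrs3 is the gene whose genotypes do not overlap, with Rpl10a LOF/LOF replicate 1 at 0.80.

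The members also differed in the sequence around their start. The GC content of the 5′UTR was 82.8% for Aldh1a2, at percentile 97.3 of 12112 transcripts (median 64.8%), 77.0% for Rdh10, 70.1% for Crabp1 and 69.6% for Cyp26a1. It was 65.7% for Rarg, 62.2% for Rara, 51.4% for Crabp2 and 45.7% for Dhrs3, the last at percentile 2.73. The members thus covered nearly the whole range of this measure. A purine 3 bases before the start codon, part of the context that favors initiation, was present in 7 of the 8 members (87.5%) and in 87.1% of 12288 transcripts.

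The rest of the retinoid pathway was described from lists of 80 genes, of which 78 matched the table and 67 passed the filter. In RPF, 2 of the 67 were called, both lower, beside 2.19% of all transcripts. In RNA, 4 were lower and 1 was higher, beside 5.02% called in either direction, and in translation efficiency 0 were called by edgeR. At an unadjusted p under 0.05 there were 11 of the 67 in RPF, 14 in RNA and 6 in translation efficiency, beside 13.7%, 17.0% and 4.44% of all transcripts. The median log2 fold change of the 67 genes was 0.01 in RPF and 0.01 in RNA, beside medians of 0.0036 and -0.0018 over all transcripts tested.

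Transport and storage was the list with most of the lower genes. Of its 8 genes 6 were tested, 2 were lower in RPF (Rbp4 and Ttr) and 3 were lower in RNA (Rbp4, Ttr and Bco1), with a list median of -0.42 in RPF and -0.40 in RNA. Rbp4, which carries retinol in the blood, had RPF of 352, 319 and 261 CPM in the wild-type and 126, 229 and 95.0 CPM in the Rpl10a LOF/LOF embryos. The 2 groups did not overlap, and Rpl10a LOF/LOF replicate 2 was the nearest to the wild-type. The Rbp4 change was -1.05 in RPF (standard error 0.25, edgeR FDR = 0.0841) and -1.21 in RNA (standard error 0.26, edgeR FDR = 0.0410). Ttr, the serum protein that holds RBP4 in the circulation, changed by -1.11 in RPF (standard error 0.23, edgeR FDR = 0.0570) and by -1.34 in RNA (standard error 0.25, edgeR FDR = 0.0268). Bco1, which cleaves carotenoids to retinaldehyde, fell by 0.69 on the log2 scale in RNA (standard error 0.16, edgeR FDR = 0.0539). The Bco1 call was lost without wild-type replicate 1, 2 or 3 or Rpl10a LOF/LOF replicate 1 or 2, at -0.74 to -0.58 (edgeR FDR = 0.113 to 0.158), and with the Y-linked covariate, at -0.92 (edgeR FDR = 0.173). In the same list Stra6, the receptor that takes up retinol, averaged 53.0 CPM of RPF in the wild-type and 57.6 CPM in the Rpl10a LOF/LOF group and did not pass the test (edgeR FDR = 0.664).

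Rbp4 and Ttr are also visceral endoderm and yolk sac markers, and most genes of that list were lower. Of its 16 genes 15 were tested, 13 were lower in RPF and 15 in RNA, with medians of -1.05 and -1.22, and Apoc2, the one not tested, had no RPF count in any library. The summed level of the list was 3907 to 4881 CPM of RNA in wild-type and 1405 to 2913 CPM in Rpl10a LOF/LOF embryos. In RPF it was 7502 to 9748 CPM and 3044 to 5791 CPM. As for Rbp4, Rpl10a LOF/LOF replicate 2 had the highest sum of its group. Calls were also made in other lists, beside 2.19% of all transcripts in RPF and 5.02% in RNA, with 3 of 6 heart markers higher in RPF and 5 of 6 in RNA, 3 of 6 primitive erythroid markers higher in RPF and 1 in RNA, and 2 of 14 presomitic mesoderm and somite markers (Dll1 and Msgn1) lower in RPF and 0 called in RNA by edgeR (3 at an unadjusted p under 0.05). Of 7 hindbrain and neural crest markers 0 were called in RPF by edgeR (2 at an unadjusted p under 0.05) and 1, Tfap2a, was higher in RNA. The summed primitive erythroid RPF ranged from 834 to 2804 CPM among the wild-type embryos and from 3501 to 5757 CPM among the Rpl10a LOF/LOF embryos. The summed RNA of that list overlapped, with 1682 CPM in wild-type replicate 3 and 1506 CPM in Rpl10a LOF/LOF replicate 1. Of 7 tailbud and posterior markers edgeR called 0 in RPF and 0 in RNA. At an unadjusted p under 0.05, 2 were lower in RPF and 1 in RNA, beside 6.61% and 9.60% of all transcripts. Their summed RPF was 134 to 145 CPM in wild-type and 114 to 129 CPM in Rpl10a LOF/LOF embryos, and their summed RNA overlapped. The part of these lists in the values of Rbp4, Ttr, Cyp26a1, Crabp1 and Crabp2 was not tested.

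The Rbp4 and Ttr calls in RPF were lost with DESeq2 on all 6 embryos (FDR = 0.259 and 0.131) and in most fits without 1 embryo. Rbp4 RPF was called in 1 of the 6 fits that left out an embryo, that without Rpl10a LOF/LOF replicate 2 at -1.50, and was between -1.17 and -0.80 in the others, those without wild-type replicates 1, 2 and 3 and Rpl10a LOF/LOF replicates 1 and 3. Ttr RPF was called in 2 of these fits, those without wild-type replicate 3 and without Rpl10a LOF/LOF replicate 2, and ranged from -1.49 to -0.92 over the 6. In RNA, both calls were lost without wild-type replicate 1, at -1.19 and -1.23 (edgeR FDR = 0.162 and 0.130), and that of Rbp4 also without wild-type replicate 2, at -1.15 (edgeR FDR = 0.110). With the Y-linked covariate the RPF changes of Rbp4 and Ttr were -0.44 and -0.60 and the RNA changes -0.57 and -0.75, and these did not pass (edgeR FDR = 0.399, 0.386, 0.110 and 0.102).

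Among the other enzymes of breakdown, Cyp2s1 RNA was lower, at 3.50, 3.76 and 4.96 CPM in the wild-type and 1.64, 2.06 and 2.25 CPM in the Rpl10a LOF/LOF embryos. The groups did not overlap and the log2 fold change was -1.09 (standard error 0.20, edgeR FDR = 0.0268), with -0.63 in RPF (edgeR FDR = 0.243). The Cyp2s1 call in RNA was lost with the Y-linked covariate, at -1.05 (edgeR FDR = 0.298). The closest relatives of Cyp26a1 were not called. Cyp26b1 changed by -0.13 in RPF and -0.19 in RNA, and Cyp26c1 by 0.01 and -0.19, with edgeR FDR of 0.833, 0.491, 0.982 and 0.345.

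Of the 9 other synthesis genes tested, 0 were called in RPF or RNA by edgeR, with 0 and 1 at an unadjusted p under 0.05, and Aldh1a1 did not pass the filter. Aldh1a3, another retinaldehyde dehydrogenase, had 1.87 and 2.10 CPM of RPF in wild-type and Rpl10a LOF/LOF embryos, against 127 and 117 CPM of Aldh1a2. Of the 5 other receptors and carriers 0 were called by edgeR, with 0 in RPF and 1 in RNA at an unadjusted p under 0.05. Rxra and Rxrb, which pair with the receptors described here, changed by -0.10 and 0.06 in RPF and by -0.02 and 0.03 in RNA. Of the 13 coregulators tested 0 were called by edgeR, with 1 in RPF and 4 in RNA at an unadjusted p under 0.05, all higher. Over all transcripts 13.7% in RPF and 17.0% in RNA reached that p in either direction. In translation efficiency 2 coregulators reached it, both lower, beside 4.44% of all transcripts. The coregulator median was -0.04 in RPF, 0.13 in RNA and -0.16 in translation efficiency.

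Of 30 genes listed as targets of retinoic acid, edgeR called 0 in RPF (5 at an unadjusted p under 0.05) and 1 in RNA (4 at that p), where Tbx5, a transcription factor of heart and forelimb that is also in the heart list, was higher. Tbx5 RNA was 8.69, 9.71 and 8.53 CPM in the wild-type and 12.9, 11.6 and 14.4 CPM in the Rpl10a LOF/LOF embryos, which do not overlap (log2 fold change 0.51, standard error 0.11, edgeR FDR = 0.0446). The Tbx5 call was lost without wild-type replicate 1 or 3 or Rpl10a LOF/LOF replicate 1 or 3, at 0.44 to 0.50 (edgeR FDR = 0.107 to 0.167), and with the Y-linked covariate, at 0.35 (edgeR FDR = 0.543). The hindbrain gene Hoxb1, a direct target of the receptors, had a log2 fold change of -0.06 in RPF and 0.09 in RNA, and Fgf8, a signal of the tail bud, of -0.18 in RPF and -0.00 in RNA. Neither passed the test, with edgeR FDR of at least 0.579. The median of the target list was 0.07 in RPF and -0.0024 in RNA.

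**Figure D4:**
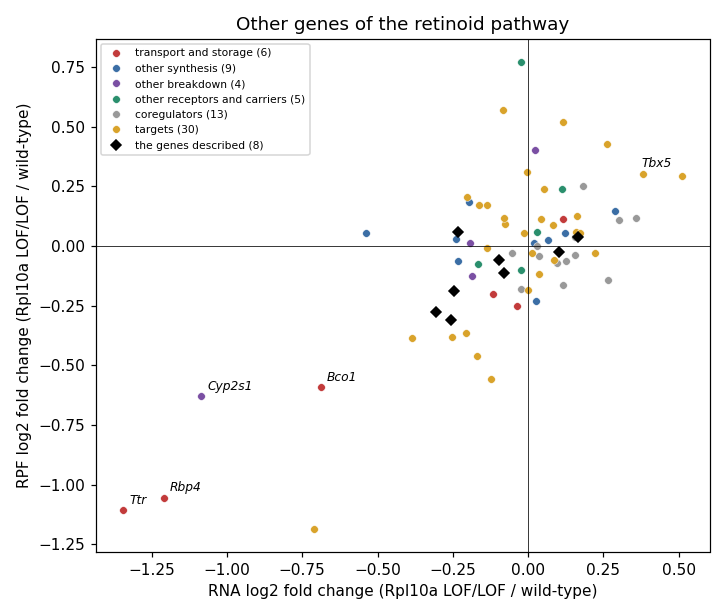
Log2 fold change in RPF against that in RNA (Rpl10a LOF/LOF over wild-type, n = 3 each) for the 67 other retinoid genes tested, colored by list, and for the 8 members (black diamonds). Ttr, Rbp4, Cyp2s1, Bco1 and Tbx5, the genes called in RPF or RNA, are named, and the members lie between -0.31 and 0.17 on both axes.

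The transcripts whose levels followed each member most closely were found from the sum of Pearson's r over the 6 RPF and over the 6 RNA libraries, on log2(CPM + 1), among all transcripts tested. This is a description over 6 libraries of each kind that share their embryos, chosen as the highest of many, and it carries no test. Crabp1 was followed by Ugt1a7c (r = 0.98 in RPF and 0.98 in RNA) and by Fabp5 (0.96 and 0.94), itself a carrier of retinoic acid. Crabp2 was followed by Herpud1 (0.96 and 0.99) and Fam84a (0.97 and 0.95). Cyp26a1 was followed by Tmbim1 and Mogat2, Aldh1a2 by Rftn2 and Gss, Rdh10 by Mzt1 and Dcbld2, and Dhrs3 by Spice1 and Zc3h7a. For Rarg these were 4930447C04Rik and Bmp7, and for Rara they were Abl2 and Inpp5e.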

How the data were processed

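RPF and RNA libraries of 3 wild-type and 3 Rpl10a LOF/LOF embryos were assigned by their labels. After trimming with cutadapt, the authors used Bowtie2 to discard reads of rRNA, tRNA and snRNA and to place the others on GRCm38/mm10 transcripts, 1 per gene, and collapsed PCR duplicates by UMI-tools. The deposited values are whole-number counts without normalization, for RPF on the CDS without its first 15 and last 5 codons and for RNA on the whole transcript, so a gene's other transcripts are not seen. Of 22467 identifiers, 21976 matched GENCODE with the same version, 477 with another and 14 not.

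The filter, separate TMM scaling and threshold followed the authors' methods. Since these name voom, limma, sva and locfdr without a design, edgeR 4.0.16 in R 4.3.3 was used (quasi-likelihood test, genotype only). Translation efficiency was the interaction of genotype and library kind over 12 libraries, without a term for the embryo. Its standard errors and p-values therefore leave out the pairing of an embryo's 2 libraries. Alternatives used DESeq2 1.42.0, limma 3.58.1 and sva 3.50.0. The steps were tested on simulated data.

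Members and gene lists were chosen with earlier results of these data known. The genes named are the 9 members, every called gene of the retinoid lists, Rxra, Rxrb, Rbp4, Stra6, Cyp26b1, Cyp26c1, Aldh1a1, Aldh1a3, Hoxb1 and Fgf8, the 2 transcripts most like each member, and Rpl10a. Dll1, Msgn1, Tfap2a and Apoc2 were named after their values were seen. Protein sequences were not analysed here, and 2 further genes of the rule are not reported here. In each of the 6 embryos the deviations of RPF and RNA from their group means were correlated across transcripts (r = 0.19 to 0.40), so the 2 libraries of an embryo are paired by the embryo.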

Additional observations from a re-analysis of the deposited data

How the results depend on the processing

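Of 344 recomputed log2 fold changes of the 8 members, 315 kept their direction and their side of the threshold, 5 newly passed it, 7 no longer passed it and 17 changed sign. The number of members called in RPF, 0, became 3 with limma-voom and surrogate variables (Crabp1, Crabp2 and Cyp26a1) and ran from 0 to 2 with an embryo left out. The 2 called in RNA became 0 with the Y-linked covariate and 0 to 2 with an embryo left out, and no alternative called a member in translation efficiency. The 2 other retinoid genes called in RPF became 0 with DESeq2, 7 with surrogate variables and 0 to 9 with an embryo left out, the 9 without Rpl10a LOF/LOF replicate 2. The 5 called in RNA became 8 with DESeq2 and 1 to 7 with an embryo left out, the 1 without wild-type replicate 1. With the 2 stricter hexamers 1 member held a DR5. The cause of these differences was not tested, except that a fit without an embryo has fewer samples.

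The 17 changes of sign were in values near 0 that no setting called. With an embryo left out, Rara RPF ranged from -0.22 to 0.11 and Rdh10 RPF from -0.15 to 0.025. In translation efficiency the ranges were -0.059 to 0.16 for Crabp1, -0.016 to 0.076 for Crabp2, -0.10 to 0.036 for Aldh1a2, -0.048 to 0.15 for Rdh10, -0.17 to 0.066 for Cyp26a1 and -0.31 to 0.0079 for Rara. With the Y-linked covariate Rdh10 RPF was 0.048 and the Aldh1a2 translation efficiency 0.13, and with surrogate variables the translation efficiency was -0.031 for Crabp1 and -0.080 for Crabp2.

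The deviations of same-numbered embryos of the 2 genotypes correlated at r = -0.10 to 0.08. This cannot show whether such embryos shared a litter or a preparation, which the labels do not give. The replicate block gave 0 members in RPF, 2 in RNA and 0 in translation efficiency, and the embryo block gave 0 in translation efficiency. Depth limits Dhrs3 and Rara, with as few as 65 and 61 RPF counts.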
